A study of Mus musculus with 6 samples.

Results

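The cytosolic ribosome is built from ribosomal RNA and a set of ribosomal proteins, most of them encoded by a single active gene each. Those of the large (60S) subunit carry Rpl symbols and those of the small (40S) subunit carry Rps symbols. Their mRNAs are among the most abundant of any cell and are translated together when growth signals act through mTORC1, by way of a pyrimidine-rich start known as the 5′ terminal oligopyrimidine (TOP) motif. In the heart, growth of the cardiomyocyte after birth depends on making protein, and the ribosome is the machine that makes it.

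Members were chosen by symbol: Rpl or Rps followed by a number (with an optional a, x or l), plus Rplp0, Rplp1, Rplp2 and Rpsa. Pseudogenes, the Rps6k kinases and genes that did not exceed 1 CPM (count scaled to the library total) in 2 bulk libraries were left out. The rule named 83 genes, of which 2 are annotated as pseudogenes (Rpl6l and Rps4l) and 3 stayed under the CPM minimum (Rpl10l, Rpl32l and Rpl39l). This left 78 members among 14041 genes tested, 47 of the 60S subunit and 31 of the 40S subunit. They lie on 19 chromosomes, with 14 on chromosome 7 and 4 on chromosome X. The member nearest to the minimum, Rpl3l, had 3.05 CPM in its second-highest library, and the nearest gene left out, Rpl32l, had 0.594. Rps3a1 and Fau also encode cytosolic ribosomal proteins, but their symbols do not match the rule.

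Immature cardiomyocytes (imCMs) from newborn C57BL/6 mouse hearts (C57BL/6J in the study's methods) were grown in a dish with cardiac fibroblasts and then sequenced. The bulk libraries were 2 of imCMs grown with neonatal fibroblasts (imCM-NF) and 2 of imCMs grown with adult fibroblasts (imCM-AF), with no other treatment, allele or time point between them. Per the study's methods the fibroblasts had been passaged before use, more fibroblasts were plated per imCM with adult than with neonatal cells, and imCMs were sorted before RNA was taken, whereas the labels describe separation by slow centrifugation. A further 2 libraries, 1 labelled cardiomyocytes and 1 labelled fibroblasts, hold single cells in wells of a chip, with unique molecular identifiers (UMIs) that count transcripts. The study describes single cells of the co-cultures, but the labels do not explain the names of the wells. Which wells held co-cultured cells is therefore not known here.

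Bulk libraries held between 9278909 and 12088577 counts. The labels do not say that libraries of a group came from separate cultures, so p-values measure only the spread between these samples, which may be technical. Markers of other cells moved with the comparison. All 12 fibroblast markers tested were found in the imCM libraries, and their summed level was 15528 and 17056 CPM with neonatal fibroblasts (imCM-NF), against 10820 and 8569 CPM with adult ones. The 14 cardiomyocyte markers summed to 53796 and 38936 CPM with neonatal fibroblasts, against 47093 and 51704 CPM with adult ones, so these groups overlapped. In bulk RNA, fewer cells of a type and less RNA per cell cannot be told apart.

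The starts of 5 members are shown because the family is known for pyrimidine-rich starts. These 5 were not picked by a stated rule, and each holds an unbroken run of 9 to 11 C and T letters. They do not represent the family, since 34 of 58 member windows held no run of 8 or more. RefSeq promoter entries (build GRCm38.p6) were matched for 58 members, and the first listed start of each gene was read from 15 bases before it to 15 bases from it, on the gene's strand. Capitals mark the longest unbroken run of C and T in each window. Rps18 is read at chr17:33955651-33955680 (minus strand), Rps27 at chr3:90213634-90213663 (minus), Rps6 at chr4:86857353-86857382 (minus), Rpl28 at chr7:4792950-4792979 (plus) and Rpl38 at chr11:114668565-114668594 (plus). Rps28, at chr17:33824548-33824577 (minus), and Rpl41, at chr10:128549154-128549183 (minus), are added because the first behaved unlike the family in bulk and the second changed most.
Rps18: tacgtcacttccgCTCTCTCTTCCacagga
Rps27: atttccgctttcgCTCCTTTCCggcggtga
Rps6: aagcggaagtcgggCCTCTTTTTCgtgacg
Rpl28: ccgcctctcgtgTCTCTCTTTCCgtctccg
Rpl38: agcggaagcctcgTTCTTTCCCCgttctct
Rps28: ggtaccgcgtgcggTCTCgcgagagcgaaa
Rpl41: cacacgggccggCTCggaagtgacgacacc

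A run of 8 or more C and T letters stood in 24 of the 58 windows (41.4%), against 11.9% of the windows of all 27025 genes with an entry. On the opposite strand such a run stood in 2 member windows, against 12.9% of all. CTTTCC was found on the gene's strand in 8 member windows (13.8%; all genes 1.39%), CTTTTC in 4 (6.90%; all genes 1.01%) and CTCTTT in 7 (12.1%; all genes 1.08%). These hexamers can overlap each other, and 16 member windows (27.6%) held at least 1 of them, against 3.20% of all windows. On the opposite strand at least 1 of them stood in 1 member window, against 2.80% of all. The annotated start of a gene need not be the base at which its mRNA begins, so a window without a run shows only that these letters are not there. Members with a run of 8 or more had a median log2 fold change in bulk of -0.52 and the 34 members with an entry but no such run had -0.50.

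The first comparison asked how the imCM transcriptome differs after growth with adult instead of neonatal fibroblasts. The ribosomal protein genes fell together in imCM-AF. Of the 78 members, 73 were lower in imCM-AF at an adjusted p under 0.05, and 0 were higher (edgeR's quasi-likelihood test, Benjamini-Hochberg adjustment over all genes tested), where 14.5% of all genes tested were lower and 12.5% higher (27% in either direction). At an unadjusted p under 0.05, 1 member was higher, Rpl3l, and DESeq2 and limma-voom also called 0 members higher. With the study's fold threshold added (an absolute log2 fold change over 0.58), 16 members were lower and 0 higher, against 4.99% and 6.15% of all genes. The median log2 fold change of the members was -0.50, against 0.0011 over all genes, which put the median member at 70.8% of its imCM-NF level. The quartiles were -0.56 and -0.42, so the members differed little among themselves. The 2 imCM-NF libraries did not overlap the 2 imCM-AF libraries in 75 members that were lower and 1 that was higher, where 33.8% and 32.1% of all genes did so.

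As a share of all counts, the members took 2.92% and 3.25% in imCM-NF and 2.34% and 2.12% in imCM-AF. Both imCM-AF libraries lay under both imCM-NF libraries, and the mean shares were 3.09% ± 0.236 (SD, n = 2) and 2.23% ± 0.155 (SD, n = 2). An exact permutation test of 2 against 2 libraries cannot give a two-sided p below 0.333, so the share itself was not tested. Both subunits fell, with 44 of 47 60S genes (median log2 fold change -0.48) and 29 of 31 40S genes (median -0.52) lower. Leaving out 1 library changed the count of lower members most for imCM-AF replicate 2, without which 32 members and 5.71% of all genes were lower (the median member was then at -0.42).

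**Figure D1:**
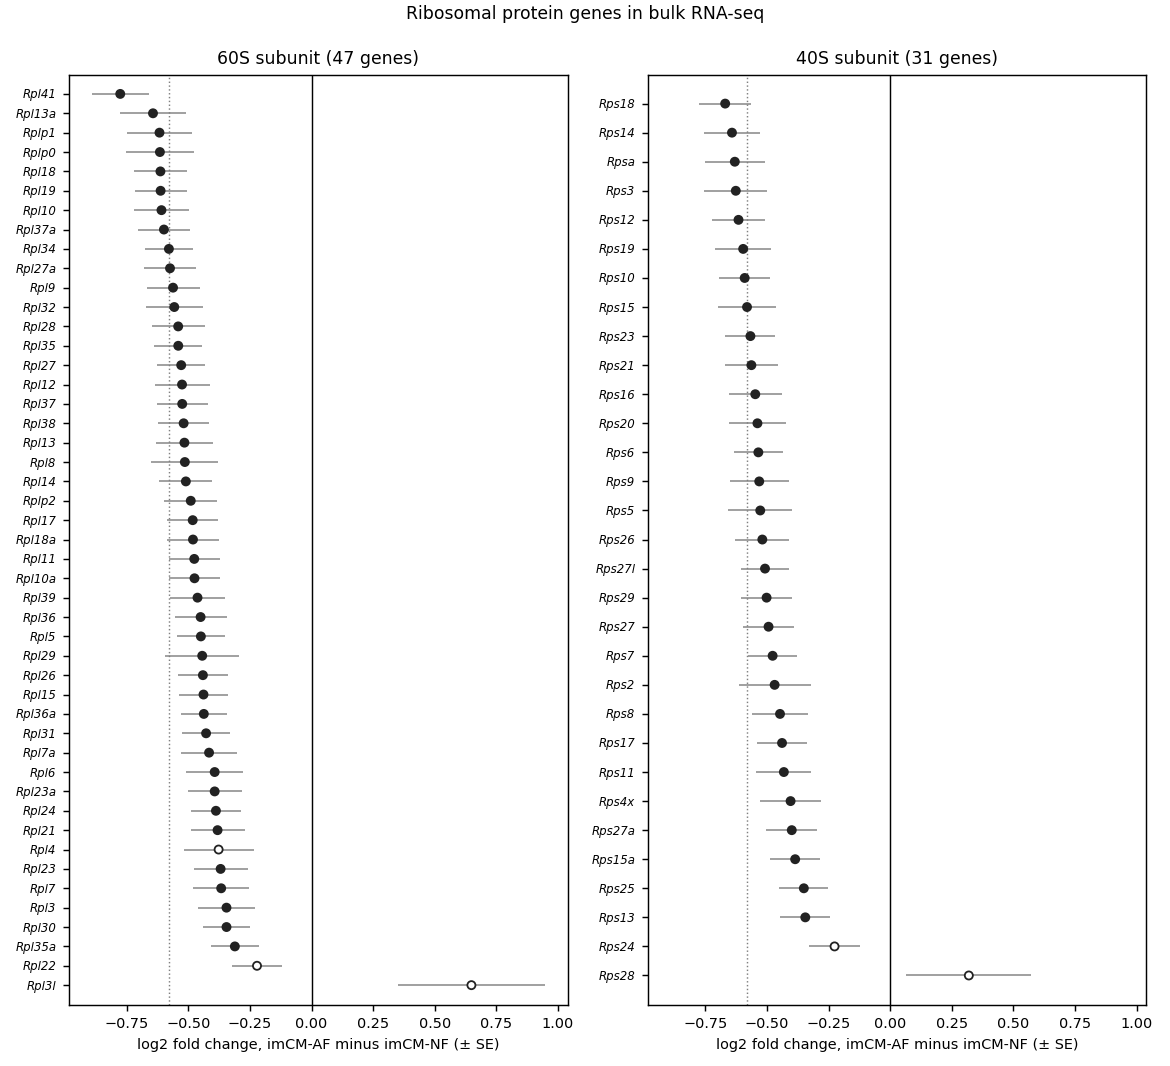
Log2 fold change (imCM-AF minus imCM-NF, horizontal axis) of each of the 78 ribosomal protein genes in bulk RNA-seq, by subunit, with bars for the standard error. Filled points passed an adjusted p of 0.05, open points did not, and the dotted line marks the study's fold threshold. All but Rpl3l and Rps28 lie left of 0, and most lie between -0.56 and -0.42 or near it.

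The deepest falls were in genes of both subunits. Rpl41 (chr10:128548110-128549168), the smallest protein of the large subunit, was measured at 648 and 654 CPM in imCM-NF against 392 and 367 CPM in imCM-AF. That is a log2 fold change of -0.78 ± 0.115 (SE; adjusted p = 0.00012, edgeR), or 58.4% of the imCM-NF level. The groups stood well apart, and the same was seen in Rps18 (chr17:33951998-33955665), a protein of the head of the small subunit, with 384 and 410 CPM against 258 and 241 CPM (log2 fold change -0.67 ± 0.107, adjusted p = 0.00024, edgeR). Rpl13a, a protein known also for a role in translation control during inflammation, was at 1145 and 1243 CPM in imCM-NF against 773 and 755 CPM in imCM-AF, with a log2 fold change of -0.64. Rps14 (496 and 529 CPM against 343 and 314 CPM), Rpsa (675 and 723 CPM against 477 and 426 CPM), Rps3 (953 and 1018 CPM against 656 and 621 CPM), Rplp1 (925 and 1005 CPM against 666 and 592 CPM) and Rps12 (417 and 452 CPM against 287 and 280 CPM) had log2 fold changes between -0.64 and -0.62. Rpsa, the laminin receptor precursor, and Rps3, which also acts in DNA repair, are members with known second roles outside the ribosome. In each of these genes the lowest imCM-NF library exceeded the highest imCM-AF library, as it did in 33.8% of all genes tested.

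The P-stalk recruits the GTPases of elongation, and its 3 genes fell together. Rplp0, its base, was at 1306 and 1388 CPM in imCM-NF against 919 and 839 CPM in imCM-AF (log2 fold change -0.62 ± 0.138, adjusted p = 0.0035, edgeR). Rplp1 changed by -0.62, and Rplp2 by -0.49 (410 and 439 CPM against 308 and 297 CPM). Rpl5 and Rpl11, which with 5S RNA form the particle that restrains Mdm2 when ribosome assembly fails, changed by -0.45 (186 and 196 CPM against 142 and 138 CPM) and -0.48 (201 and 222 CPM against 161 and 143 CPM). Rps6, the protein that S6 kinase phosphorylates, changed by -0.54 (199 and 209 CPM against 147 and 134 CPM). Rps19, mutated in Diamond-Blackfan anaemia, changed by -0.60 (328 and 356 CPM against 246 and 206 CPM).

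Rps27a and Rpl38 were nearer to the middle or the shallow end of the family. Rps27a, made as a fusion with ubiquitin, changed by -0.40 (261 and 282 CPM against 215 and 197 CPM), and Rpl38, needed for translation of some Hox mRNAs, by -0.52 (153 and 135 CPM against 107 and 93.8 CPM). Rpl34 stood just short of the study's fold threshold, with a log2 fold change of -0.58 (197 and 204 CPM against 134 and 135 CPM). All of the role genes of this and the preceding paragraph passed an adjusted p of 0.05.

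Per length of transcript, the highest members were Rplp1 at 1597 CPM per kilobase, Rpl41 at 1179, Rpl8 at 1038, Rps2 at 1001 and Rpl32 at 999 CPM per kilobase, over the mean of the 4 libraries. All of them were lower in imCM-AF. Rpl8 changed by -0.51, Rps2 by -0.47 and Rpl32 by -0.56 on the log2 scale. The lowest member by this measure was Rpl3l at 2.09 CPM per kilobase, and the others spanned 44.2 (Rps15a) to 1597 CPM per kilobase. The place of Rps15a, at 229 CPM, rests on an annotated length of 5179 nucleotides, the longest of the family. These lengths are medians over annotated transcripts and need not be those of the mRNAs present. The same lengths enter the comparisons with length below.

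The members that did not pass were Rpl4, Rps24, Rpl22, Rps28 and Rpl3l. Rpl4, an abundant protein lining the exit tunnel, was at 1360 and 1482 CPM in imCM-NF against 1144 and 1044 CPM in imCM-AF (log2 fold change -0.38 ± 0.142, adjusted p = 0.058, edgeR). Rps24 (-0.23, adjusted p = 0.11, edgeR) and Rpl22 (-0.22, adjusted p = 0.11, edgeR) had smaller differences. In each of these genes both imCM-AF libraries lay below both imCM-NF libraries, as they did in 33.8% of all genes tested. Of the members that passed, those with the smallest falls were Rpl35a (-0.31), Rps13 (-0.34), Rpl30 (-0.35) and Rpl3 (-0.35). Rpl29 passed at an adjusted p of 0.038 (edgeR), although its libraries overlapped, with 136 and 187 CPM in imCM-NF against 141 and 97.8 CPM in imCM-AF.

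Rps28 (chr17:33823036-33824562) was unlike the family and was decided by 1 library. It was at 23.1 and 23.2 CPM in imCM-NF, at 41.6 CPM in imCM-AF replicate 1 and at 16.6 CPM in imCM-AF replicate 2. The log2 fold change was 0.32 ± 0.253 (adjusted p = 0.37, edgeR). Without imCM-AF replicate 1 it was -0.47 (adjusted p = 0.044, edgeR), and without imCM-AF replicate 2 it was 0.85 (adjusted p = 1.2e-06, edgeR). The direction for Rps28 is therefore not settled by these libraries.

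Some ribosomal proteins have a second gene with a narrower pattern. Rpl3l, the form of Rpl3 made in heart and skeletal muscle, was at 2.12 and 1.82 CPM in imCM-NF against 3.10 and 3.02 CPM in imCM-AF (log2 fold change 0.65 ± 0.298, adjusted p = 0.12, edgeR). Its libraries did not overlap between groups, but the test was not passed. Of all genes tested, 32.1% were higher in imCM-AF without overlap. Rpl3 itself was at 408 and 451 CPM against 359 and 318 CPM (log2 fold change -0.35, adjusted p = 0.033, edgeR). Rps27l, induced by p53, changed by -0.51 and Rps27 by -0.49, at 112 and 121 CPM against 85.8 and 78.0 CPM for Rps27l and 265 and 273 CPM against 202 and 180 CPM for Rps27.

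Rps4x, on chromosome X, was at 464 and 498 CPM in imCM-NF against 405 and 322 CPM in imCM-AF (log2 fold change -0.40). Rps4l, annotated as a transcribed pseudogene and so no member, was at 64.3 and 72.8 CPM against 60.1 and 49.6 CPM (log2 fold change -0.33, adjusted p = 0.033, edgeR). Rpl10 changed by -0.61, while Rpl10l had 0 counts in every bulk library, which allows up to 0.248 to 0.323 CPM (3 counts per library). Rpl39 changed by -0.46 (51.7 and 61.0 CPM against 44.7 and 37.5 CPM), while Rpl39l had 1 to 7 counts per library. Rpl36a changed by -0.44 and Rpl7 by -0.37, and both passed. Their paralogs did not pass: Rpl36al was at -0.19 (adjusted p = 0.13, edgeR) and Rpl7l1 at -0.09 (adjusted p = 0.50, edgeR), and Rpl22l1, the paralog of Rpl22, was at -0.03 (adjusted p = 0.88, edgeR). That the 2 genes of a pair changed differently was not tested. Members have 318 annotated pseudogenes that carry their names, so unique placement of reads can lower a level, by an amount that differs between genes but applies to all libraries of these groups.

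Transcripts of this family are short, with a median of 786 nucleotides against 2950 over the genes tested, and length moved with the comparison. Among tested genes that are no members, those up to the first quartile of length (1930 nucleotides) had a median log2 fold change of -0.10 and those above the last quartile (4393 nucleotides) 0.08. The 132 genes that are no members, with a mean above 100 CPM and a transcript under 1000 nucleotides, had a median of -0.14, and 29.5% of them were lower. The members' median of -0.50 lay below that of each of these classes. Within the family, Spearman's correlation of the fold change with transcript length was 0.152 across 78 genes, which share the same libraries. The part of length in the fall was not tested.

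Other genes of translation were read from lists. The list of other genes whose mRNAs are known to carry a TOP motif has 21 genes, of which 11 were lower and 1 higher, with a median log2 fold change of -0.32. Rack1, a protein of the 40S subunit, was lowest at -0.65 (1436 and 1597 CPM against 1027 and 909 CPM), followed by Fau, which encodes a 40S protein fused to a ubiquitin-like domain, at -0.61, and Eef1b2, an exchange factor for elongation, at -0.57. The elongation factors Eef1a1 (-0.38, adjusted p = 0.14, edgeR) and Eef2 (-0.34, adjusted p = 0.18, edgeR) did not pass. Eif4a2, a helicase of initiation, was the 1 that was higher (0.48, adjusted p = 0.0021, edgeR). Rps3a1, a 40S protein outside the symbol rule, changed by -0.41 (adjusted p = 0.0086, edgeR).

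Genes that act before or beside the ribosome had medians nearer to 0. The counts that follow stand beside 14.5% lower and 12.5% higher over all genes. Of 33 other initiation factors, 5 were lower and 2 higher (median -0.05), from Eif6, which keeps the subunits apart, at -0.57 to Eif5, the GTPase activator of start-codon recognition, at 0.43. Of 36 genes of ribosome biogenesis, 2 were lower and 5 higher (median -0.01), from Polr1c, a subunit of RNA polymerases I and III, at -0.65 to Rrp1b, a nucleolar protein, at 0.45.

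Of 19 genes of the mTORC1 pathway and the Myc family, 0 were lower at an adjusted p under 0.05 and 4 were higher (median 0.05). These were Myc, a transcription factor that drives ribosome production, at 0.55 (88.9 and 73.4 CPM against 113 and 124 CPM, adjusted p = 0.0011, edgeR), the kinase Mtor at 0.34, the S6 kinase Rps6kb1 at 0.32 and the RNA-binding protein Larp4b at 0.28. Larp1, the protein that binds TOP mRNAs, was at 0.11 (adjusted p = 0.42, edgeR). Of the 78 mitochondrial ribosomal protein genes, which build a separate ribosome, 9 were lower and 6 higher (median -0.01), from Mrpl17 at -0.42 to Mrpl47 at 0.73. Of 38 proteasome genes, 6 were lower and 1 higher (median -0.06), from Psmd8 at -0.43 to Psmb8, of the immunoproteasome, at 0.63.

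**Figure D2:**
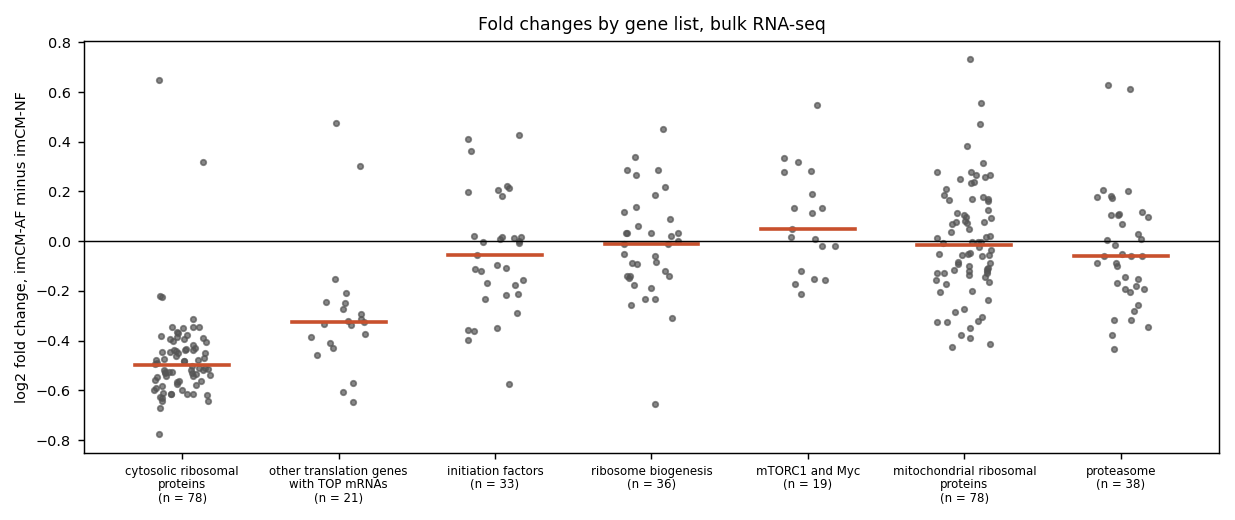
Log2 fold change (imCM-AF minus imCM-NF, vertical axis) of each tested gene in 7 lists, 1 point per gene, with a bar at the median of the list. Cytosolic ribosomal protein genes have a median of -0.50 and the other genes with TOP mRNAs -0.32, while the remaining lists have medians between -0.06 and 0.05.

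Fibroblast markers fell beside the family. Of 12 markers, 10 were lower and 1 was higher (median log2 fold change -0.72), with Postn at -1.87, Thy1 at -1.70 and Col1a2 at -0.72, and Mfap5 higher at 1.39. Of 14 cardiomyocyte markers 1 was lower and 2 were higher (median 0.16). Endothelial, macrophage and smooth muscle markers had 7 of 10, 3 of 9 and 3 of 8 lower and 0 higher. The part of these cells in the fall of ribosomal protein genes was not tested in the bulk libraries.

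The single-cell libraries show the family in single wells, under a label of 1 cell kind per library. There is 1 library of each kind, so no test, SE or p-value is given, and intervals cover counting error only. Wells carry names in the authors' report, which the labels do not explain, and they are given here as they stand: NFNCM, AFNCM and NCM0 in the cardiomyocytes library, and NF, AF, NF0 and AF0 in the fibroblasts library, each with a number. Wells with at least 500 genes, an alignment rate over 50% and a number of UMIs no more than 2 SD from the average were kept, 1296 of 1409 in the cardiomyocytes library and 951 of 1053 in the fibroblasts library. The 2 libraries share 269 well barcodes. All 78 members had a column in both. Not every kept well was led by the markers of its library's cell kind. Cardiomyocyte marker UMIs exceeded fibroblast ones in 488 of 523 NFNCM, 430 of 515 AFNCM and 256 of 258 NCM0 wells. Fibroblast marker UMIs exceeded cardiomyocyte ones in 189 of 256 NF, 213 of 219 AF, 244 of 306 NF0 and 169 of 170 AF0 wells.

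The family took more of the UMIs in the fibroblasts library than in the cardiomyocytes library. Shares of summed UMIs, with mitochondrial genes and spike-ins left out, ran from 2.93% to 3.75% over the 8 well names of the cardiomyocytes library and from 4.08% to 6.36% over the 8 names of the fibroblasts library. The libraries were separate chips, so chip and cell kind cannot be told apart. Wells named Neg_Ctrl had 39 member UMIs of 1465 (2.66%, 95% Clopper-Pearson interval 1.90% to 3.62%) on the first chip and 176 of 3587 (4.91%, interval 4.22% to 5.67%) on the second. Both intervals overlapped the range of the named wells of their chip.

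Within the cardiomyocytes library, the wells named AFNCM did not have a lower share than those named NFNCM. Wells named NFNCM1, NFNCM2 and NFNCM3 gave 3.75%, 3.23% and 3.14%, and AFNCM1, AFNCM2 and AFNCM3 gave 3.53%, 3.56% and 3.64%. These ranges overlapped. Over all 523 NFNCM wells the share was 3.35% (interval 3.34% to 3.36%) and over all 515 AFNCM wells 3.59% (interval 3.58% to 3.59%), a ratio of 1.07. Per well, the medians were 2.92%, 2.83% and 2.82% for the NFNCM names and 3.86%, 3.63% and 4.11% for the AFNCM names, which did not overlap. The ratio of the medians over all wells of each kind was 1.35. Wells named NCM0_1 and NCM0_2 had the lowest shares of this library, 2.93% and 2.98%.

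**Figure D3:**
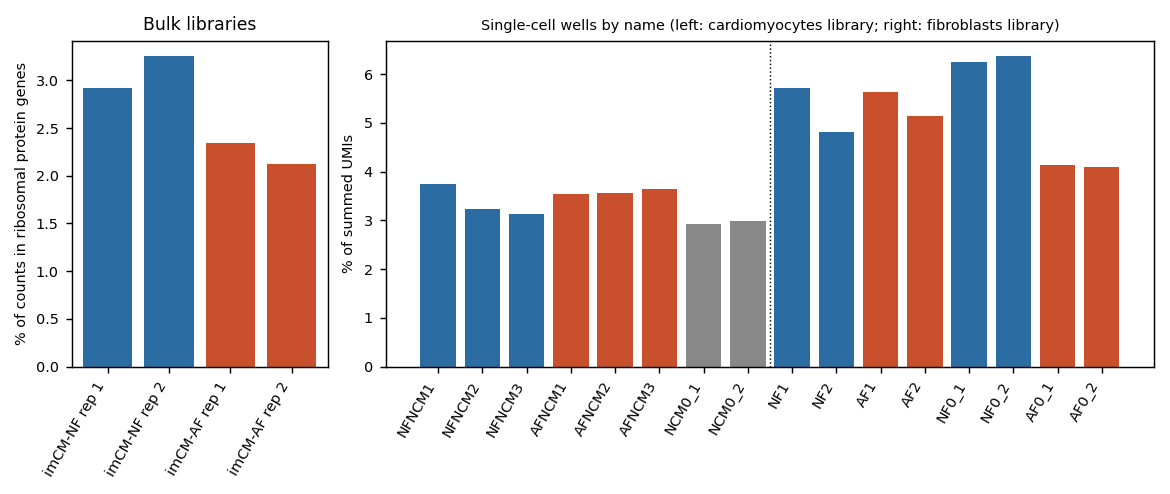
Share of counts or UMIs in ribosomal protein genes (vertical axes, percent), as bars per bulk library on the left and per well name of the single-cell libraries on the right, where the dotted line parts the cardiomyocytes library from the fibroblasts library. Bulk shares are 2.92% and 3.25% in imCM-NF and 2.34% and 2.12% in imCM-AF, while AFNCM wells lie within the range of NFNCM wells and the AF0 wells lie below the NF0 wells.

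Fibroblast markers moved with this difference too. The 12 fibroblast markers summed to 1293, 1060 and 824 CPM of UMIs in the NFNCM names and to 2173, 2527 and 2896 CPM in the AFNCM names, so here they were higher with the A names, the opposite of the bulk libraries. The 14 cardiomyocyte markers summed to 43525, 54421 and 49658 CPM in the NFNCM names and to 47920, 42953 and 40343 CPM in the AFNCM names, with overlapping ranges and a lower total over all AFNCM wells (43111 CPM) than over all NFNCM wells (49439 CPM). Of these, Tnnt2 was at 10648 to 14285 CPM in NFNCM names and 11289 to 12913 CPM in AFNCM names. In the wells that held more cardiomyocyte than fibroblast marker UMIs (488 NFNCM and 430 AFNCM wells), the shares were 3.10% and 3.34%, a ratio of 1.08. In these wells the fibroblast markers summed to 662 and 1432 CPM and the cardiomyocyte markers to 54239 and 51464 CPM. The part of either marker list in the result was not tested.

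**Figure D4:**
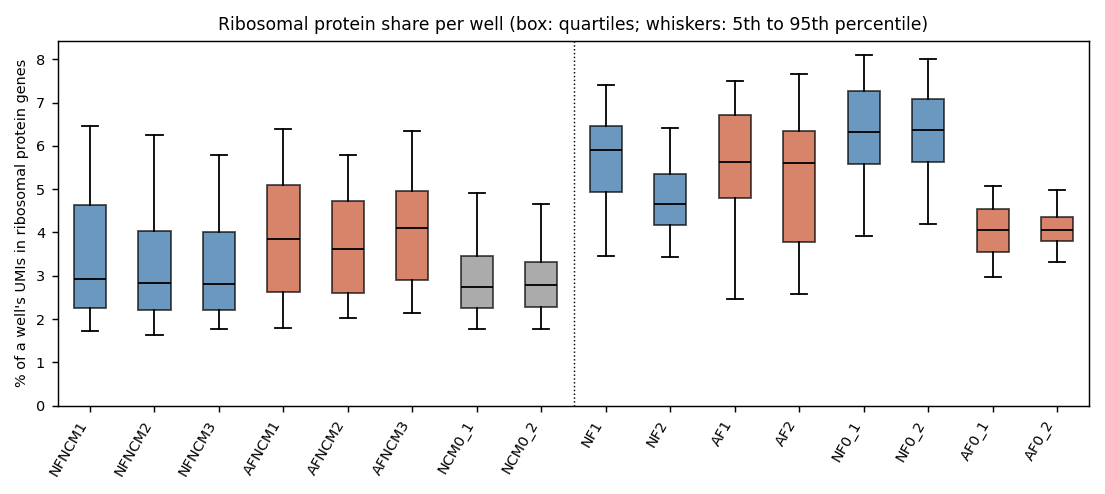
Ribosomal protein share of the UMIs of each kept well (vertical axis, percent), by well name; boxes give quartiles with the median as a line, whiskers the 5th and 95th percentiles, and the dotted line parts the 2 libraries. Medians of the AFNCM names (3.63% to 4.11%) lie above those of the NFNCM names (2.82% to 2.92%), and medians of the AF0 names (4.07%) lie below those of the NF0 names (6.33% and 6.36%).

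Between members, the AFNCM to NFNCM ratio lay slightly above 1 in most. Of 76 members with at least 100 UMIs in both sums, 68 had a ratio above 1 and 8 below, with a median of 1.09 and a range of 0.864 to 1.39. The same shares over all genes are not given for any pair of well names. In their place, the 88 genes of initiation, ribosome biogenesis and the mTORC1 and Myc list stand beside the members. These lists need not behave like all genes. Of these, 78 had as many UMIs in both sums, and 54 of the 78 had a ratio above 1, with a median of 1.09, the same as that of the members. The highest were Rps12 (1.39, interval 1.25 to 1.54), Rpl21 (1.34), Rpl5 (1.29), Rps20 (1.26) and Rpl22 (1.25). Rps12, a 40S protein, was at 48.6, 42.8 and 45.0 CPM in the NFNCM names and at 68.1, 65.6 and 57.2 CPM in the AFNCM names, so its names did not overlap. The lowest were Rps27l (0.864, interval 0.850 to 0.878), Rps29 (0.903), Rps21 (0.963), Rps16 (0.965) and Rpl34 (0.971). Rps27l was at 2534, 2040 and 2163 CPM in the NFNCM names and at 1968, 1791 and 2039 CPM in the AFNCM names.

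Rpl41, the member with the deepest fall in bulk, was at 601, 556 and 493 CPM in the NFNCM names and at 576, 551 and 576 CPM in the AFNCM names. Rps28, which differed between its imCM-AF libraries in bulk, was at 966, 770 and 693 CPM in the NFNCM names and at 858, 835 and 821 CPM in the AFNCM names, where its bulk libraries held 16.6 to 41.6 CPM of counts. Across the 76 members, Spearman's correlation of the AFNCM to NFNCM ratio with the bulk fold change was 0.0871, over genes that share libraries and depth.

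Within the fibroblasts library, AF and NF wells had like shares. NF1 and NF2 gave 5.72% and 4.81%, and AF1 and AF2 gave 5.64% and 5.14%, so the AF names lay between the NF names. Over all wells the shares were 5.29% and 5.41%, a ratio of 1.02, which was 0.945 without NF2 and 0.973 without AF1. Of 77 members with enough UMIs, 44 had a ratio above 1 and 33 below (median 1.02), and of the other translation genes 35 of 77 were above 1 (median 0.959). The highest were Rps19 (1.32), Rpl10a (1.30), Rpl11 (1.28), Rpl41 (1.28) and Rpl28 (1.28), and the lowest were Rpl36 (0.547, interval 0.522 to 0.574), Rps27l (0.740), Rpl21 (0.783), Rps21 (0.803) and Rpl23 (0.808). Rpl36, a 60S protein, stood apart with 502 and 740 CPM in NF1 and NF2 and 362 and 309 CPM in AF1 and AF2. The markers differed between these wells too. Cardiomyocyte markers summed to 3977 CPM in NF wells and 737 CPM in AF wells, and fibroblast markers to 3071 and 8638 CPM. In wells with more fibroblast than cardiomyocyte marker UMIs (189 NF and 213 AF wells), the ratio of shares was 1.01. In these wells the cardiomyocyte markers still summed to 1161 and 150 CPM, and the fibroblast markers to 3476 and 8787 CPM. The part of either marker list in these ratios was not tested.

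The widest gap was between the wells named AF0 and NF0. NF0_1 and NF0_2 gave 6.25% and 6.36%, and AF0_1 and AF0_2 gave 4.13% and 4.08%, a ratio of 0.648 over the 306 NF0 and 170 AF0 wells. The share of all genes that were lower in AF0 wells is not given here. Of the genes of the other translation lists, 42 of 79 were lower, with a median ratio of 0.972. Of 77 members, 75 were lower in AF0 wells, with a median ratio of 0.688. The exceptions were Rpsa (1.15; 478 and 589 CPM in the NF0 names, 683 and 600 CPM in the AF0 names) and Rpl13a (1.05; 996 and 1101 CPM against 1077 and 1134 CPM). The lowest ratios, in genes chosen after their values were seen, were Rps27 at 0.392 (2024 and 1696 CPM against 811 and 653 CPM) and Rpl41 at 0.410 (1227 and 1199 CPM against 495 and 496 CPM).

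Shorter members were further apart between AF0 and NF0 wells. The 20 members with a transcript of at most 560 nucleotides had a median ratio of 0.552, and the 23 with more than 1000 nucleotides had 0.731, with a Spearman correlation of ratio and length of 0.424 across 77 genes measured in the same wells. For AFNCM over NFNCM the same medians were 1.03 and 1.13 (correlation 0.440 across 76 genes), and for AF over NF they were 0.979 and 1.01 (correlation -0.0188 across 77 genes). The other genes with TOP mRNAs were closer, since the list summed to 9524 CPM in NF0 wells and 9105 CPM in AF0 wells. Cardiomyocyte markers were at 5684 CPM in NF0 wells and 280 CPM in AF0 wells, and the median UMI total was 32976 and 38627. In wells that held more fibroblast than cardiomyocyte marker UMIs the ratio of shares was 0.636. These wells still differed in markers. Cardiomyocyte markers summed to 1735 CPM in NF0 wells and 188 CPM in AF0 wells, and fibroblast markers to 4700 and 3405 CPM. The part of either marker list in this ratio was not tested.

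**Figure D5:**
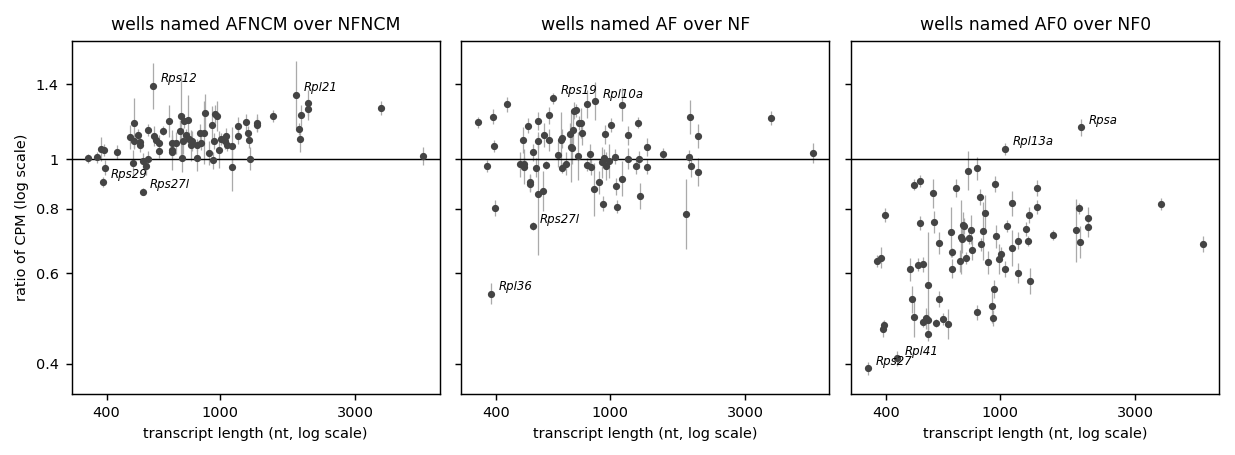
Ratio of the level (CPM of UMIs) of each member between wells of 2 names (vertical axis, log scale) against transcript length (horizontal axis, nucleotides, log scale), with 95% counting intervals, for members with at least 100 UMIs in both. Ratios of AFNCM over NFNCM lie mostly above 1 (68 of 76) and those of AF over NF lie on both sides of it, with Rpl36 lowest in the latter at 0.547, while those of AF0 over NF0 lie mostly below 1, lowest for Rps27 (0.392) and Rpl41 (0.410).

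By level, the leading members were much the same in both libraries. Rps14 and Rps27l, in either order, led in 6 of the 7 kinds of wells, and Rps14 and Rps26 led in AF0 wells. Rps14 was at 2038 CPM in NFNCM wells, 2222 CPM in AFNCM wells, 3635 CPM in NF wells and 1642 CPM in AF0 wells. The order differed from bulk. Across the 78 members Spearman's correlation of the single-cell level with bulk CPM per kilobase was 0.306. Rps27l was 1.27 to 2.27 times the level of Rps27 in the 7 kinds of wells, and 0.431 times its CPM in bulk (0.277 times per kilobase). Rps27l itself was at 1616 to 3358 CPM in these wells and 99.1 CPM in bulk. Rpl23a went the other way, at 5.97 to 21.1 CPM against 304 CPM in bulk. How reads of like genes and pseudogenes were placed in the single-cell counts was not tested. These levels therefore need not rank the mRNAs themselves.

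Paralogs with a narrow pattern had few UMIs. Rpl3l was found at 7.08, 6.91 and 3.90 CPM in the NFNCM names, at 3.36, 6.03 and 1.19 CPM in the AFNCM names, and at 0 to 1.62 CPM in the fibroblasts library, with at most 34 UMIs per name. Its AFNCM to NFNCM ratio was 0.596 (counting interval 0.412 to 0.857), from 53 and 77 UMIs. The ranges of the names overlapped. This direction is the opposite of that in bulk, where Rpl3l was higher in imCM-AF without passing. Rpl39l had 55 UMIs in NF1 (14.8 CPM) and 95 in NF0_2 (12.5 CPM), 19 in NF0_1 and at most 11 in every other name. Rpl10l had at most 7 UMIs per name. Rpl22l1, an RNA-binding paralog of Rpl22, was at 48.7 and 53.2 CPM in the NCM0 names, at 82.0 to 125 CPM in the NFNCM names and at 107 to 141 CPM in the AFNCM names. It was also lower in AF0 names (32.3 and 40.8 CPM) than in AF names (126 and 166 CPM), and Rps4l was at 11.4 and 18.9 CPM in the AF0 names and at 65.7 and 66.2 CPM in the AF names. Rpl36al was at 294 to 530 CPM and Rpl7l1 at 47.1 to 84.9 CPM over all 16 names.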

How the data were processed

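Bulk RNA-seq was made from 4 libraries and single-cell RNA-seq from 2. The authors deposited raw counts per gene for the bulk libraries, which they obtained by aligning reads to mm10 with Subread (its R version per the study's methods; the submitters' processing notes list 1.4.6-p1 without saying for which libraries), keeping uniquely placed reads and counting with featureCounts on RefSeq genes; use of strand is not stated. The authors' single-cell files, as deposited, give a UMI count for each gene in each well (STAR 2.5.2b, Ensembl genes), and read pairs per well. Depth was 9278909 to 12088577 counts per bulk library.

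Symbols came from RefSeq (GRCm38.p6, the mm10 assembly) by Entrez identifier, with 1904 identifiers unmatched, and transcript lengths, the median over transcripts with a RefSeq accession, from GENCODE M21. Genes with CPM over 1 in 2 libraries were kept, in place of the study's RPKM minimum. The groups were compared in edgeR 4.0.16 (R 4.3.3, TMM scaling, quasi-likelihood test, Benjamini-Hochberg over all genes); gene CPM values are TMM-scaled, and the SE is the log2 fold change over the square root of F. On simulated counts over 13877 genes for this comparison, edgeR recovered 66 of 100 genes changed by 0.5 on the log2 scale and 100 of 100 changed by 1.5, with 8 false calls. The simulation gave all genes 1 common dispersion (spread between libraries) and changed only genes with a mean over 100 counts. Real genes differ in their spread, so these figures need not hold for the data. DESeq2 1.42.0 and limma 3.58.1 (voom) were alternatives, with other scalings, filters, thresholds, left-out libraries and a replicate block.

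Single-cell wells were summed by name over kept wells (UMI totals up to 129577); doublets were not called, since the study chose wells by image. Replicates of a group differed beyond sampling noise (chi-square per degree of freedom 8.60 and 8.42).

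Bulk genes named are the 8 lowest and 8 highest log2 fold changes, the 5 highest per kilobase, paralog pairs and genes with known roles; single-cell genes are the 5 highest and 5 lowest ratios and the paralogs. The members and lists were chosen with earlier results of these data known.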

Additional observations from a re-analysis of the deposited data

How the results depend on the processing

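The count of 73 lower members was 70 to 74 under each other scaling, filter and test tried for it, and 0 members were higher in these. It was 16 with the fold threshold added and 59 at an adjusted p under 0.01, where 7.74% of all genes were lower. Leaving out 1 library gave 32 to 74 lower members and a median log2 fold change of -0.56 to -0.42; the 32 were found without imCM-AF replicate 2 (5.71% of all genes lower) and 57 without imCM-NF replicate 2 (6.42%), where the lone sample is assumed to vary like the other group. With the replicate number as a block, 52 members and 9.56% of all genes were lower (median of the members -0.50). The labels do not say what a shared number means, and same-numbered libraries did not deviate together (correlation -0.15 over 14041 genes), so the numbers were not taken to pair the samples. With the numbers crossed, chosen after seeing the data, 76 members were lower and 1 was higher, with 20.1% of all genes lower. Scaling by library totals moved the median of all genes to 0.04, where 70 members were lower with a median of -0.45.

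Of 35 named members under these alternatives, 441 of 489 values kept their direction and call, 43 lost the call, 4 gained it and 1 reversed, Rps28, which ran from -0.47 to 0.85 as libraries were left out (-0.47 without imCM-AF replicate 1).

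The AFNCM to NFNCM ratio of shares was 1.35 as a median over wells and 1.32 in wells at or below the median UMI total of their name, and 1.06 to 1.08 under the other choices of wells and total. Leaving out 1 numbered name, also chosen after seeing the data, gave 1.03 to 1.13. The AF to NF ratio was then 0.945 to 1.12, with 0.945 without NF2 and 0.973 without AF1, so it has no settled side of 1. The AF0 to NF0 ratio was 0.667 with mitochondrial genes counted, 0.636 in wells with more fibroblast than cardiomyocyte marker UMIs, and 0.644 to 0.656 without 1 name. The cause of these shifts was not tested. The comparisons rest on 2 libraries per group and on 1 single-cell library per cell kind.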

Other observations

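Wells named Pos_Ctrl, which are part of no comparison, had lower member shares than each of the 8 names compared in their library. They gave 1.61% (interval 1.439% to 1.803%) in the cardiomyocytes library and 3.14% (interval 2.98% to 3.29%) in the fibroblasts library.

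Other pairs of well names can be set side by side without a test. The shares over all genes are not given for these pairs. The median ratio over members was 1.12 for NFNCM over NCM0 (64 of 76 above 1, beside 31 of 64 genes of the other translation lists) and 1.22 for AFNCM over NCM0 (69 of 76 above 1, beside 41 of 65). In the fibroblasts library it was 0.819 for NF over NF0 (12 of 77 above 1, beside 41 of 77) and 1.22 for AF over AF0 (63 of 77 above 1, beside 35 of 77). The 4 kinds of fibroblast wells therefore spread from 4.10% (AF0) to 6.32% (NF0), while NF (5.29%) and AF (5.41%) lay closer to each other.

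The mitochondrial share of UMIs was 22.0% in NFNCM wells and 22.3% in AFNCM wells, and 9.23% in NF0 wells and 6.70% in AF0 wells. Between subunits, 60S genes held 1.61% and 40S genes 1.74% of the UMIs in NFNCM wells. In AF0 wells they held 2.21% and 1.89%, and in NF0 wells 3.20% and 3.13%.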
